A study of Mus musculus with 8 samples.

Results

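The 7 genes described here encode the inhibitors of cyclin-dependent kinases, the brakes of the cell division cycle. They were taken by gene symbol: Cdkn1a, Cdkn1b and Cdkn1c of the Cip/Kip family, and Cdkn2a, Cdkn2b, Cdkn2c and Cdkn2d of the Ink4 family. All 7 were listed in each of 3 deposited expression tables, out of 22431 named genes in the first and second tables and 33365 named loci in the third. The study deleted Bmpr1a, which encodes a receptor of the bone morphogenetic protein (BMP) pathway, in cells of the mouse hair follicle and measured RNA by sequencing in 8 libraries. Levels are FPKM, fragment counts divided by the length of the transcript and the size of the library, and the 3 tables were normalized separately, so deleted and control libraries were compared within a table.

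The first table holds bulge stem cells (HFSCs), the slowly dividing reserve of the follicle, from K15-CrePGR mice on postnatal day 68, with 1 Bmpr1a Het library and 1 cKO library. The second holds transit-amplifying cells (TACs), their rapidly dividing progeny in the hair bulb, from Shh-CreER mice of the same age, likewise 1 Het library and 1 cKO library. The third holds hair bulb TACs of K15-CrePGR mice on day 80, with WT samples 52 and 57 and KO samples 64 and 84. The series' design gives the deleted genotype as Bmpr1a fl/fl with the named Cre, and all mice were of mixed strain. The controls of the first and second tables are labelled Het and those of the third WT, so the control genotype differs between tables. Both drivers are inducible forms of the Cre recombinase, K15-CrePGR under the keratin 15 promoter of the bulge and Shh-CreER from the Sonic hedgehog gene of the hair matrix. By this design the deletion in the K15-CrePGR bulbs would be inherited from stem cells, which the expression values do not show. The inducing agent, its timing and the number of animals behind a library are not given in these sources. Nor is it given whether samples 52, 57, 64 and 84 are separate mice. WT 52 and WT 57 differed in the sex-linked RNAs Xist (3.26 and 175 FPKM) and Ddx3y (26.4 and 0.0812 FPKM), so they are not repeats of 1 RNA sample. P-values measure the spread between these samples, which for KO 64 and KO 84 may be technical.

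Cyclin D with Cdk4 or Cdk6, and then cyclin E with Cdk2, carry a cell from G1 into DNA synthesis by phosphorylating the retinoblastoma pocket proteins and freeing E2F factors. Ink4 proteins bind Cdk4 and Cdk6, and Cip/Kip proteins bind cyclin and kinase together and act most strongly on Cdk2. In the hair follicle, BMP signalling is known to hold bulge stem cells in quiescence and to drive matrix progeny into hair shaft differentiation, and both states require leaving the cell cycle. Much of the control of these inhibitors, that of Cdkn1b above all, lies in protein stability, which RNA does not show.

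Before the results, the libraries themselves differed in ways that touch them. FPKM carry no depth, and the step that 1 read makes in FPKM put it at 47.3 to 55.4 M reads in HFSCs, about 28.6 M in both Shh-CreER libraries and 23.4 to 29.3 M in the K15-CrePGR TACs. Of the markers of the labelled cell types, 11 bulge markers summed to 9450 (Het) and 3764 (cKO) FPKM in HFSCs against 134 to 636 FPKM in the 6 TAC libraries, and 10 hair matrix and shaft markers to 27.8 and 52.95 FPKM in HFSCs against 802 to 5507 FPKM in TACs. Krt15 alone made up 7834 FPKM of the Het bulge sum. The HFSC libraries also held epidermal differentiation markers at a higher sum than the bulge markers, 11895 FPKM in Het and 5146 FPKM in cKO, led by Krt10 at 4693 and 2026 FPKM. Bmpr1a lay between 31.8 and 46.0 FPKM in all 8 libraries, and such gene-level values cannot show whether an exon was excised. The sex-linked RNAs Xist and Ddx3y differed within tables. Xist stood at 68.9 FPKM in the HFSC control but 3.98 FPKM in the deleted HFSC library, and at 3.26 FPKM in WT 52 against 175 to 226 FPKM in the other K15-CrePGR TACs. Both Shh-CreER libraries held Ddx3y, at 10.001 FPKM (Het) and 14.8 FPKM (cKO). In bulk RNA, fewer cells of a type and less RNA per cell cannot be told apart.

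Cdkn1a and Cdkn2a were the members that differed in 1 direction in all 3 tables. Of genes averaging at least 1 FPKM in every table, 7.13% were lower and 10.1% higher in every deleted library. Cdkn2a is not among those genes, since it averaged under 1 FPKM in HFSCs. In K15-CrePGR TACs it reached 1 FPKM through the KO samples alone. Both Cdkn1a and Cdkn2a have more than 1 start site, each with its own upstream sequence. The 250 bases before each start are shown because the FPKM of a gene adds these starts together, so that the tables do not say which of them a difference came from. They are from RefSeq on GRCm38.p6, which is not the mm9 build of the deposited values, and run 5′ to 3′ on the strand of the gene. The Cdkn1a start 1 window lies at chr17:29090729-29090978 (+ strand) and start 2 at chr17:29093519-29093768 (+ strand). The Cdkn2a start 1 window, before the first exon of the Arf transcript, lies at chr4:89294620-89294869 (- strand), and start 2, before that of the Ink4a transcript, at chr4:89282193-89282442 (- strand). Capitals mark a p53 response element in the first sequence and GGGCGG boxes, the core that Sp1-type factors bind, in the others.
Cdkn1a start 1: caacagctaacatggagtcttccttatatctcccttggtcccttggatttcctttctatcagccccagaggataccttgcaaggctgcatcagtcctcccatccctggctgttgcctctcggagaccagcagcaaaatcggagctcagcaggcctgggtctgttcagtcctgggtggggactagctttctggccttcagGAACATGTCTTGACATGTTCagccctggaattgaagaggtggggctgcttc
Cdkn1a start 2: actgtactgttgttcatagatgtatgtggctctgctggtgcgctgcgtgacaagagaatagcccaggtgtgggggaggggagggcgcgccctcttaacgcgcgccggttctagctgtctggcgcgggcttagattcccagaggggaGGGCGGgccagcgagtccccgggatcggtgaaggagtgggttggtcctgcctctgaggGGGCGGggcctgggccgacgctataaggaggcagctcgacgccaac
Cdkn2a start 1: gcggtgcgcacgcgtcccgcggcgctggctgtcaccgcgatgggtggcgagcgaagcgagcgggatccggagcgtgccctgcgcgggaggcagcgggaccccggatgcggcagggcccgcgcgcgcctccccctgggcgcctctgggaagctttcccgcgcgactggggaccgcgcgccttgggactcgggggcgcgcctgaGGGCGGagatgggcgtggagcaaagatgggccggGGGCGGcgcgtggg
Cdkn2a start 2: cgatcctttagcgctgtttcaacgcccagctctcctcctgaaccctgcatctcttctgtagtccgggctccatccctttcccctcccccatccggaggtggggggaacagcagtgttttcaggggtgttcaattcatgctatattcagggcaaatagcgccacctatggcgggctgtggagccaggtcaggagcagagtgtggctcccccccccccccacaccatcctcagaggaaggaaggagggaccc

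These upstream windows differ in what they hold. Cdkn1a is the textbook target of p53, and its start 1 window carries a p53 element, searched as a pair of adjoining decamer repeats and at most 1 mismatch, beginning at position -51 from the start. Such an element was found in 19 of 32851 RefSeq windows of the same length (0.0578%). The start 2 window has no such element but 2 GGGCGG boxes, at -104 and -46. The Arf window of Cdkn2a has GGGCGG at -48 and -14, and its Ink4a window has none in these letters. GGGCGG, searched on both strands, occurs in 32.7% of all windows. The other motifs searched, also on both strands and allowed to overlap, were GGCGCC (9.59% of windows) and the E-box CANNTG (66.2%), of which the Cdkn1a start 2 window holds CANNTG at -187 and the Arf window GGCGCC at -115. In all, 6 of the 7 genes had entries, with 9 windows. Of the remaining windows, Cdkn2c start 1 and Cdkn2d each hold 3 GGGCGG boxes and Cdkn1b holds 1. A match describes letters and is not evidence of binding.

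Cdkn1a (p21, mm9 chromosome 17, 29227924 to 29237667), which stops Cdk2 on p53 and differentiation signals, was the most abundant inhibitor in every control library and lower in every deleted library. Its level was 199 FPKM in the Het and 113 FPKM in the cKO library of HFSCs. The Shh-CreER TACs had 166.7 FPKM (Het) and 65.1 FPKM (cKO). In K15-CrePGR TACs it was 147 and 104 FPKM in WT 52 and WT 57, and 89.9 and 77.8 FPKM in KO 64 and KO 84. No deleted library of any table reached the lowest control of its table. The deleted library held 0.566 times the control level in HFSCs and 0.390 times in Shh-CreER TACs, or log2 differences of -0.82 and -1.34 on the log2(FPKM + 1) scale used for all differences below, each from 1 library per genotype and so without a replicate check.

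Among K15-CrePGR TACs the Cdkn1a means were 125 ± 30.5 FPKM (WT) and 83.8 ± 8.52 FPKM (KO; mean ± SD, n = 2 and 2), a log2 difference of -0.56 ± 0.23 (SE) that did not pass the threshold (limma unadjusted p = 0.0666, adjusted p = 0.311). The size rests in part on WT 52, the library of low Xist: without it the log2 difference was -0.31. Of the 10007 genes that averaged at least 1 FPKM in every table, 713 (7.13%) were likewise lower in every deleted library than in every control of its table, and 1015 (10.1%) were higher in every one.

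Cdkn1b (p27, mm9 chromosome 6, 134870341 to 134875531), the inhibitor that accumulates in resting cells, was nearly level. HFSCs had 65.4 FPKM (Het) and 70.0 FPKM (cKO), and it lay at 69.5 and 77.7 FPKM in Shh-CreER TACs. In K15-CrePGR TACs it was 66.8 and 49.6 FPKM in WT 52 and WT 57 and 63.2 and 50.9 FPKM in KO 64 and KO 84, with overlapping groups. The log2 differences were 0.10, 0.16 and -0.02 (limma adjusted p = 0.967, SE 0.22), and the last changes sign with quantile normalization (0.075). With Cdkn1a lower and Cdkn1b level, the order of the pair turned in Shh-CreER TACs, where Cdkn1a stood above Cdkn1b in Het and below it in cKO.

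Cdkn1c (p57, mm9 chromosome 7, 150644255 to 150646955), an imprinted gene known for its part in cell cycle exit during development, went opposite ways in HFSCs and in the TACs of the same Cre line. HFSCs had 8.81 FPKM in Het and 1.90 FPKM in cKO, a 4.63-fold lower level (log2 difference -1.76), from an estimated 920 and 170.0 reads. Shh-CreER TACs had 3.63 and 3.29 FPKM (log2 difference -0.11). K15-CrePGR TACs had 1.82 and 1.87 FPKM in WT 52 and WT 57 against 5.08 and 4.09 FPKM in KO 64 and KO 84, with both KO samples above both WT samples. Their means were 1.84 ± 0.0357 and 4.58 ± 0.701 FPKM (SD, n = 2 and 2), a log2 difference of 0.97 ± 0.22 (SE) with a limma unadjusted p = 0.00923 that did not pass after adjustment (adjusted p = 0.172). That difference lay between 0.84 and 1.098 with any 1 of the 4 libraries left out, and between 0.48 and 1.26 over the other settings tried. The HFSC difference ran from -2.15 to -1.0005, its smallest size being just 2-fold with a pseudocount of 5. The opposite signs in the separately normalized tables were not tested against each other. In the HFSC pair the sex-linked RNAs differed along with genotype, and their bearing on Cdkn1c was not tested.

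Added together, the Cip/Kip transcripts followed Cdkn1a. The 3 genes summed to 273 FPKM (Het) and 184 FPKM (cKO) in HFSCs, to 240 and 146 FPKM in Shh-CreER TACs, and in K15-CrePGR TACs to 216 and 155 FPKM (WT 52, WT 57) and 158 and 133 FPKM (KO 64, KO 84). In the K15-CrePGR TACs the sums of the groups overlapped, since KO 64 lay above WT 57. The share of Cdkn1a in this sum was lower in each deleted library than in its controls: 72.8% against 61.0% in HFSCs, 69.5% against 44.6% in Shh-CreER TACs, and 68.2% and 66.9% in WT 52 and WT 57 against 56.8% and 58.6% in KO 64 and KO 84. A share depends on no scaling of the library.

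**Figure D1:**
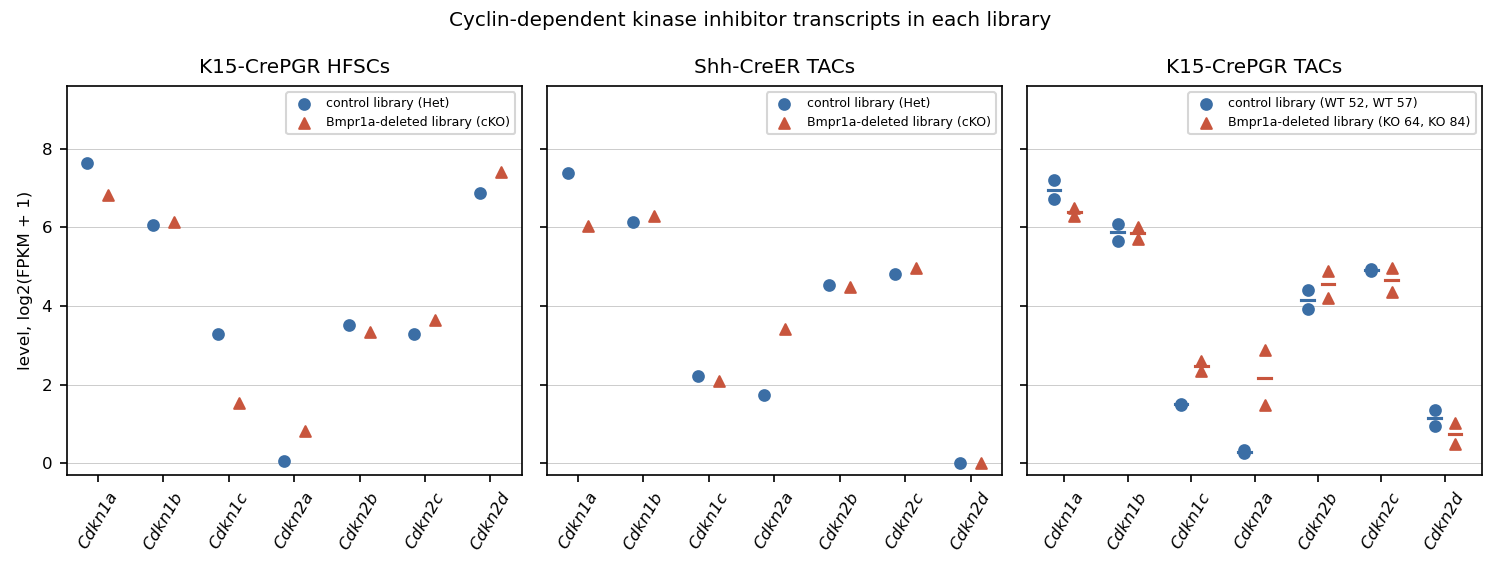
Level of each inhibitor as log2(FPKM + 1) on the vertical axis in each of 8 libraries, in panels for the 3 tables; circles are control and triangles deleted libraries, and short bars are the means of the 2 samples in K15-CrePGR TACs. Cdkn1a lies lower and Cdkn2a higher in the deleted libraries of every panel, and Cdkn2d (its first listed row) is high in the HFSC panel only, with values that cannot be compared between panels.

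Cdkn2a (mm9 chromosome 4, 88920377 to 88940557) encodes p16Ink4a and, in another reading frame from the Arf start, p19Arf, which stabilises p53 by binding Mdm2. Its level was higher in each deleted library than in its controls and close to undetected in control stem cells. HFSCs had 0.0392 FPKM in Het, an estimated 1.9 reads, and 0.780 FPKM in cKO, an estimated 32 reads, a mean under the minimum of 1 FPKM used for comparisons, so no fold is given. Shh-CreER TACs had 2.36 FPKM in Het and 9.66 FPKM in cKO, a 4.10-fold higher level (log2 difference 1.67) from an estimated 59 and 240.0 reads. K15-CrePGR TACs had 0.260 and 0.191 FPKM in WT 52 and WT 57 and 1.77 and 6.34 FPKM in KO 64 and KO 84, so that both KO samples lay above both WT samples and KO 84 well above KO 64.

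The K15-CrePGR means of Cdkn2a were 0.226 ± 0.0486 FPKM (WT) and 4.06 ± 3.23 FPKM (KO; SD, n = 2 and 2). The log2 difference of 1.88 ± 0.55 (SE) had a limma unadjusted p = 0.0233 and did not pass after adjustment (adjusted p = 0.231). The gene reached the minimum of 1 FPKM through the KO samples alone, so it could enter the test only by differing. Its size depends on which KO sample is kept: the log2 difference was 2.58 without KO 64 and 1.18 without KO 84. It depends still more on the pseudocount, at 3.42 with 0.1 and 0.75 with 5. The WT level rests on an estimated 5.9 and 4.9 reads. The order within the Ink4 and Cip/Kip genes shifted with it, from the least abundant member in WT to a level overlapping that of Cdkn1c in KO.

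Cdkn2b (p15Ink4b, mm9 chromosome 4, 88949948 to 88956950), the neighbour of Cdkn2a and a known target of TGF-beta signalling, differed little. In HFSCs it was at 10.4 FPKM (Het) and 9.13 FPKM (cKO), and at 22.4 and 21.2 FPKM in Shh-CreER TACs (log2 differences -0.17 and -0.07). In K15-CrePGR TACs it was 20.4 and 14.1 FPKM in WT 52 and WT 57 and 17.5 and 28.6 FPKM in KO 64 and KO 84, with overlapping groups (log2 difference 0.38 ± 0.32 (SE), limma adjusted p = 0.544). That value ran from 0.046 without KO 84 to 0.72 without KO 64, with 0.13 without WT 57 and 0.64 without WT 52. KO 84, the sample with the highest Cdkn2a of that table, also had its highest Cdkn2b.

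Cdkn2c (p18Ink4c, mm9 chromosome 4, 109333481 to 109339794), an inhibitor of Cdk4 and Cdk6 that is itself an E2F target, was also near its control level. Its HFSC levels were 8.82 FPKM (Het) and 11.5 FPKM (cKO), against 27.3 and 30.2 FPKM in the Shh-CreER pair (log2 differences 0.35 and 0.14). In K15-CrePGR TACs it was 28.8 and 29.95 FPKM in WT 52 and WT 57 and 30.1 and 19.6 FPKM in KO 64 and KO 84, again with overlapping groups (log2 difference -0.26 ± 0.24 (SE), limma adjusted p = 0.584). The sign there came from KO 84, without which the difference was 0.034.

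Cdkn2d (p19Ink4d, mm9 chromosome 9, 21092907 to 21095653) was listed in 2 rows of the same accession in the HFSC and Shh-CreER tables. In HFSCs the first row gave 117 FPKM in Het and 169.8 FPKM in cKO (log2 difference 0.53), and the second 78.6 and 131 FPKM (0.73). Both rows were listed at 0 in both Shh-CreER libraries, and in K15-CrePGR TACs the gene was at 1.55 and 0.926 FPKM in WT 52 and WT 57 and 1.03 and 0.396 FPKM in KO 64 and KO 84, under the minimum. The level of Cdkn2d therefore cannot be set beside the other members across tables. Of 15 genes so listed more than once with a level of at least 10 FPKM in HFSCs, 12 were under 10 FPKM in both Shh-CreER libraries, against 1181 of 7690 genes listed once (15.4%). What part the repeated listing has in the HFSC level was not tested.

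As a group the 7 genes did not shift together. In HFSCs 6 passed the minimum of 1 FPKM, and 1 of them, Cdkn1c, was at least 2-fold lower and none higher, where 10.5% of 12205 genes were at least 2-fold different (5.92% higher, 4.60% lower). In Shh-CreER TACs 6 passed, with Cdkn2a at least 2-fold higher and Cdkn1a at least 2-fold lower, against 5.43% of 12296 genes in either direction (2.67% higher, 2.77% lower). With a pseudocount of 5, the Shh-CreER count is 1, since Cdkn2a then lies just under 2-fold. In K15-CrePGR TACs 6 passed and limma called none at an adjusted p under 0.05, where it called 9 of 13565 loci (0.0663%; 0.0369% higher and 0.0295% lower), and an unadjusted p under 0.05, held by 17.4% of all loci, was reached by Cdkn1c and by Cdkn2a, the latter tested only because its KO level was high. There Cdkn1c and Cdkn2a were higher in both KO samples (26.8% of loci) and Cdkn1a lower in both (27.5% of loci), and the groups did not overlap for 54.4% of loci. The median log2 difference over the members that passed was -0.04 in HFSCs, 0.04 in Shh-CreER TACs and 0.18 in K15-CrePGR TACs, beside 0.05, 0.01 and -0.03 over all genes tested. Without Cdkn2a the K15-CrePGR median over the other 5 members was -0.02.

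**Figure D2:**
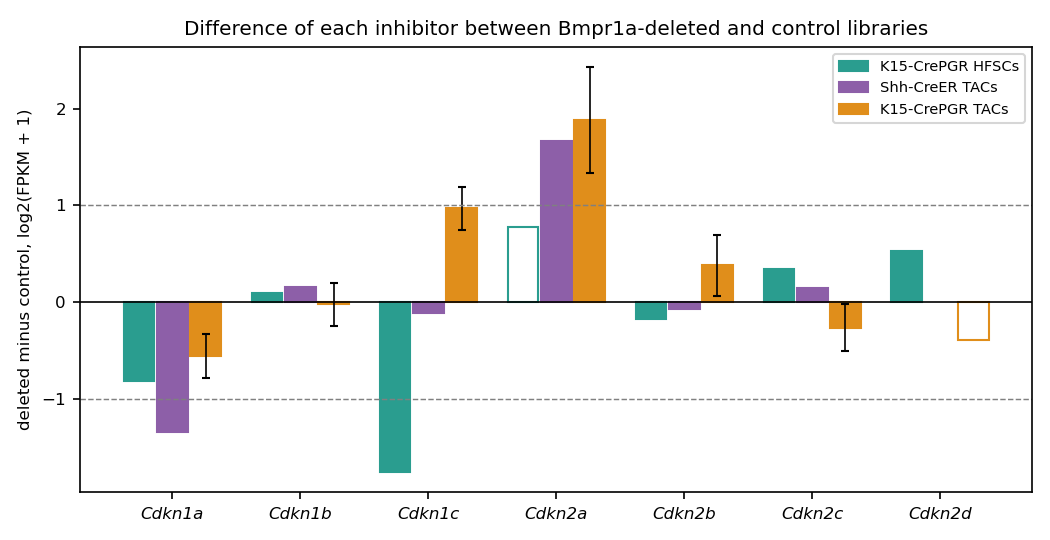
Difference of deleted minus control on the log2(FPKM + 1) scale (vertical axis) for each inhibitor in the 3 comparisons; bars start at 0, dashed lines mark 2-fold, error bars are limma standard errors (2 against 2 samples), and open bars are genes under the minimum of 1 FPKM. Cdkn1a is negative in all 3 comparisons, Cdkn2a positive, and Cdkn1c changes sign from -1.76 in HFSCs to 0.97 in K15-CrePGR TACs; Cdkn2d has no bar in Shh-CreER TACs, where it is listed at 0.

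**Figure D3:**
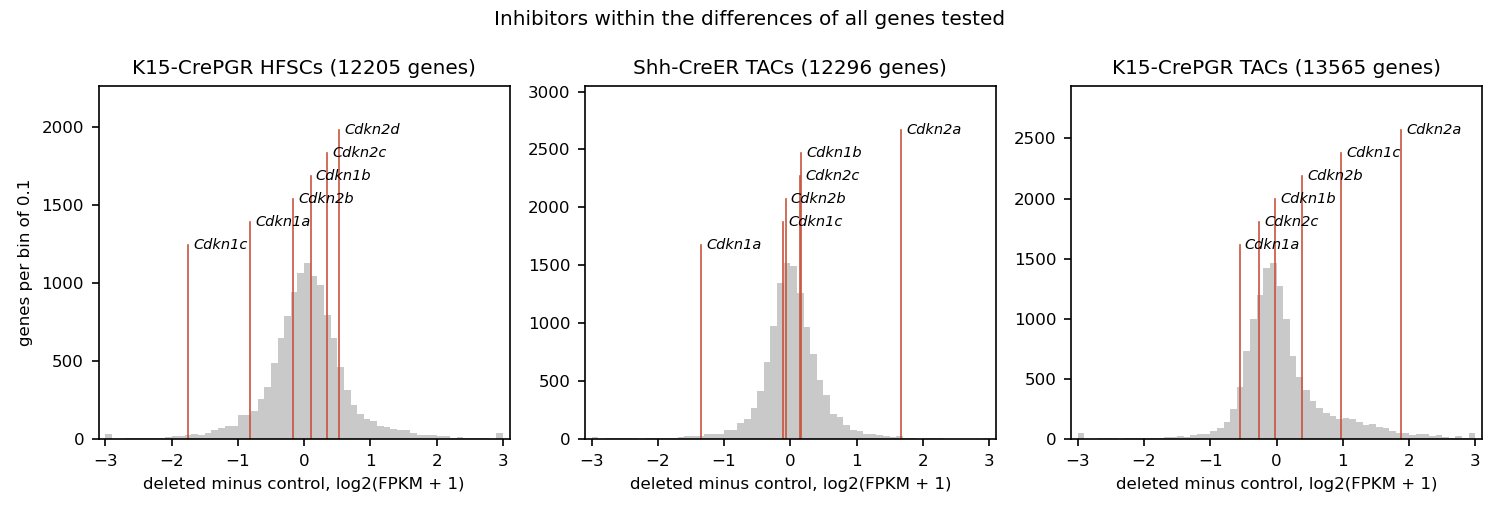
Histogram of the difference (deleted minus control, log2(FPKM + 1), horizontal axis, values beyond 3 in size placed in the end bins) over all genes tested in each table, with the vertical axis counting genes per bin; red lines mark the inhibitors that passed the minimum, their height serving only to place the names. In Shh-CreER TACs Cdkn1a (-1.34) and Cdkn2a (1.67) lie in the tails and the other 4 near 0.

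Ranked by FPKM, which is per length, the control levels ran from Cdkn1a down. In WT K15-CrePGR TACs the order was Cdkn1a, Cdkn1b, Cdkn2c, Cdkn2b, Cdkn1c, Cdkn2d and Cdkn2a, and no 2 neighbours overlapped between samples. In KO the order of the first 5 was kept, but Cdkn2c and Cdkn2b overlapped, as did Cdkn1c and Cdkn2a. Among the single libraries, Shh-CreER Het had the same order down to Cdkn1c. HFSC Het differed by Cdkn2d in second place and by Cdkn2b, Cdkn2c and Cdkn1c lying close together, at 10.4, 8.82 and 8.81 FPKM.

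The kinases and cyclins that these proteins hold in check differed between cell types. In cKO HFSCs 3 of 8 G1 cyclins and kinases were at least 2-fold higher and none lower (median log2 difference 0.80), among them Cdk4 (91.7 FPKM in Het, 189 FPKM in cKO), while Ccnd2 (cyclin D2) stood at 25.8 and 50.4 FPKM, just under 2-fold on this scale. All 4 genes of the S and M phase engine were at least 2-fold higher (median 1.92), with Cdk1 at 3.91 and 18.0 FPKM, and so were 14 of 15 proliferation genes (median 1.54). In these libraries, where 5.92% of all genes were at least 2-fold higher, lower Cdkn1a and Cdkn1c thus stood beside higher cell cycle transcripts, while Cdkn2c and Cdkn2d were higher by less than 2-fold. Markers of other cells moved in the same libraries: 6 of 8 epidermal differentiation markers and 6 of 7 sebaceous markers that passed the minimum were at least 2-fold lower (4.60% of all genes were), and their sums went from 11895 to 5146 FPKM and from 492 to 154 FPKM. The immune markers, 4 of 5 at least 2-fold lower, went from 304 to 123 FPKM with Cd207 above 0 in both, and smooth muscle markers, 3 of 4 at least 2-fold higher, from 11.8 to 96.2 FPKM, with Des listed at 0 in cKO. Of melanocyte markers 4 of 5 were at least 2-fold higher and Mitf was lower, with sums of 31.5 FPKM (Het) and 44.0 FPKM (cKO). At least 2-fold higher were also 4 of 7 inner root sheath markers and 4 of 8 hair matrix and shaft markers, and 1 of the latter was lower. The part of these markers in the inhibitor levels was not tested.

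In Shh-CreER TACs, where Cdkn1a was lower and Cdkn2a higher, most cell cycle genes differed by less than 2-fold. The proliferation genes summed to 1250 FPKM (Het) and 1475 FPKM (cKO). The median over the G1 genes was 0.26, beside 0.01 over all genes tested. None of the 15 proliferation genes (median 0.21) and none of the 4 S and M phase genes (median -0.07) differed 2-fold, with Cdk1 at 80.9 FPKM (Het) and 84.2 FPKM (cKO). Of the 8 G1 cyclins and kinases only Cdk6, a direct partner of Ink4 proteins, did so (2.67% of all genes were higher), at 4.80 and 12.7 FPKM, and Ccnd1 (cyclin D1) was at 52.5 and 95.3 FPKM. Hair matrix and shaft markers were lower in the same cKO library, 7 of 10 by at least 2-fold (2.77% of all genes were), with a sum of 5507 FPKM in Het and 802 FPKM in cKO. Skeletal muscle markers summed to 145 and 25.0 FPKM, melanocyte markers to 95.8 and 25.6 FPKM and sebaceous markers to 144 and 330 FPKM, with no marker of these lists at 0 in either library. Most of the melanocyte sum was Dct (82.9 and 15.8 FPKM), and 1 of 5 melanocyte markers was at least 2-fold lower (median -0.23). Dermal papilla and fibroblast markers summed to 816 and 958 FPKM, immune markers to 272 and 239 FPKM and endothelial markers to 20.1 and 33.4 FPKM, with none 2-fold different. Smooth muscle markers summed to 53.8 and 32.1 FPKM. Whether they bear on the inhibitors was not tested.

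In K15-CrePGR TACs limma called no gene of any of these lists. At an unadjusted p under 0.05 (17.4% of all loci) lay 2 of 4 S and M phase genes, 0 of 8 G1 genes, 0 of 15 proliferation genes and 2 of 13 pocket protein and E2F genes. In 3 of the 4 S and M phase genes each KO sample lay under each WT sample, with Cdk1 at 208 and 231 FPKM in WT 52 and WT 57 and 159.8 and 162 FPKM in KO 64 and KO 84 (log2 difference -0.44, limma adjusted p = 0.275). None of the proliferation genes was higher in both KO samples and 6 of 15 were lower in both (27.5% of all loci were). Downstream of the kinases, E2f2 was at 57.1 and 60.5 FPKM in WT against 28.2 and 28.4 FPKM in KO (log2 difference -1.03, limma adjusted p = 0.0992), and the pocket protein gene Rb1 at 41.5 and 37.7 FPKM against 27.8 and 23.0 FPKM (adjusted p = 0.206). Of the 13 pocket protein and E2F genes 7 were lower in both KO samples and 1 was higher.

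Marker lists of other cell types differed between these samples as well, with no marker called by limma. Of those that passed the minimum, 6 of 6 immune, 6 of 9 fibroblast and dermal papilla, 6 of 6 melanocyte and 3 of 5 endothelial markers lay above both WT samples in both KO samples, where 26.8% of all loci did. A marker near 0 in WT could pass the minimum through the KO samples alone. Immune markers summed to 141 and 35.0 FPKM in WT 52 and WT 57 and to 1215 and 216 FPKM in KO 64 and KO 84, with Cd207 at 0 in every sample but KO 64. Fibroblast and dermal papilla markers summed to 407 and 432 FPKM in WT and 1517 and 468 FPKM in KO, and endothelial markers to 3.81 and 1.22 FPKM in WT and 31.1 and 4.41 FPKM in KO. Melanocyte markers summed to 27.8 and 25.6 FPKM in WT 52 and WT 57 and 121 and 39.8 FPKM in KO 64 and KO 84, smooth muscle markers to 24.04 and 21.4 FPKM against 133 and 77.0 FPKM, and epidermal markers to 121 and 82.7 FPKM against 383 and 209 FPKM. Skeletal muscle markers overlapped, at 13.4 to 18.0 FPKM in WT and 14.6 to 16.3 FPKM in KO. Of hair matrix and shaft markers 6 of 9 were lower in both KO samples, where 27.5% of all loci were. These markers summed to 3168 and 2603 FPKM in WT and 1121 and 905 FPKM in KO. All 7 bulge markers that passed were higher in both KO samples, and 6 of 7 inner root sheath markers were lower in both. Bulge markers summed to 134 and 182 FPKM in WT 52 and WT 57 against 517 and 636 FPKM in KO 64 and KO 84. Inner root sheath markers summed to 1347 to 1495 FPKM in KO against 4375 to 4637 FPKM in WT. KO 64 had the highest immune and fibroblast sums, and Cdkn2a was higher in KO 84. The part of these lists in the inhibitor levels was not tested. Without KO 64 the log2 differences were 0.84 for Cdkn1c, 2.58 for Cdkn2a and -0.66 for Cdkn1a.

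Regulators of the inhibitors were taken from lists of genes with known roles. Of 5 genes of p53 and its regulators none was 2-fold different in HFSCs, where Trp53 itself was at 41.4 FPKM (Het) and 73.3 FPKM (cKO). In Shh-CreER TACs Trp73, the p53 relative, was the only 1 of 5 past 2-fold, at 6.998 and 21.8 FPKM. In K15-CrePGR TACs Trp63, the p53 relative of basal epithelium, was at 80.2 and 85.4 FPKM in WT and 142 and 144 FPKM in KO (log2 difference 0.78, limma adjusted p = 0.139). Trp53 RNA was lower in none of the deleted libraries than in its controls. The part of these genes in the Cdkn1a level was not tested.

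The p53 targets other than Cdkn1a were mixed in direction. In HFSCs 1 of 15 was at least 2-fold higher (5.92% of all genes were) and none lower. The median was 0.22, beside 0.05 over all genes tested. Plk2, a stress kinase, was at 26.5 and 83.99 FPKM. The death gene Bbc3 (Puma) was at 10.6 and 4.93 FPKM, just under 2-fold on this scale. In Shh-CreER TACs none of 16 was 2-fold different, and the median was -0.04 beside 0.01 over all genes tested. There Plk2 was at 54.3 and 34.0 FPKM and Trp53inp1 at 47.4 and 78.5 FPKM. In K15-CrePGR TACs 5 of 15 were higher and 4 lower in both KO samples (median 0.11), close to the shares over all loci (26.8% and 27.5%), and 7 had an unadjusted p under 0.05 (17.4% of all loci) with none called by limma. In all 3 tables, 7.13% of the genes averaging at least 1 FPKM in each were lower in every deleted library than in its controls. Phlda3, an inhibitor of Akt, was among them. It was at 89.8 and 75.6 FPKM in HFSCs (Het, cKO), at 216 and 151 FPKM in Shh-CreER TACs, and in K15-CrePGR TACs at 132 and 95.3 FPKM in WT and 60.4 and 57.8 FPKM in KO (adjusted p = 0.175 by limma).

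Repressors of the Cdkn2a locus, mostly Polycomb proteins that keep it silent in dividing cells, were mixed in direction too. In HFSCs 2 of 13 were at least 2-fold lower (4.60% of all genes were) and none higher (median -0.20): Id1, a BMP target that opposes activation of the Ink4a start, at 297 and 111 FPKM (Het, cKO), and Cbx7, a Polycomb reader, at 25.1 and 9.20 FPKM. The Polycomb methyltransferase gene Ezh2 was at 10.8 and 20.6 FPKM. In Shh-CreER TACs Id1 alone of 13 was past 2-fold (5.43% of all genes were), at 358 FPKM (Het) and 49.2 FPKM (cKO), and Cbx7 was at 8.05 and 14.3 FPKM. In K15-CrePGR TACs Id1 was at 289 and 178 FPKM in WT and 119.6 and 136 FPKM in KO (log2 difference -0.83, limma adjusted p = 0.267), and Bmi1, a core Polycomb gene, at 19.6 and 23.3 FPKM against 28.5 and 31.5 FPKM (adjusted p = 0.266).

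Among 13 transcription factors known to act on Cip/Kip genes, none was 2-fold different in HFSCs (median 0.05) or in Shh-CreER TACs (median 0.20). Hes1, a Notch effector that represses Cip/Kip genes, was at 89.0 and 149 FPKM in HFSCs, at 164 and 87.8 FPKM in Shh-CreER TACs, and at 240 and 126 FPKM in WT against 100.4 and 101 FPKM in KO K15-CrePGR TACs. Myc, which represses Cdkn1a, was at 54.3 and 31.5 FPKM in WT and 23.2 and 12.4 FPKM in KO (log2 difference -1.24, limma adjusted p = 0.259). Of the 10 components of the ubiquitin ligases that degrade Cip/Kip proteins, 2 were at least 2-fold higher in HFSCs (median 0.39; 5.92% of all genes were), including Cks1b, the cofactor of Skp2 in Cdkn1b turnover, at 25.3 and 82.8 FPKM. None of them was 2-fold different in Shh-CreER TACs (median 0.05), and in K15-CrePGR TACs Cks1b was at 114 and 109 FPKM in WT and 78.4 and 89.9 FPKM in KO (adjusted p = 0.295 by limma).

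**Figure D4:**
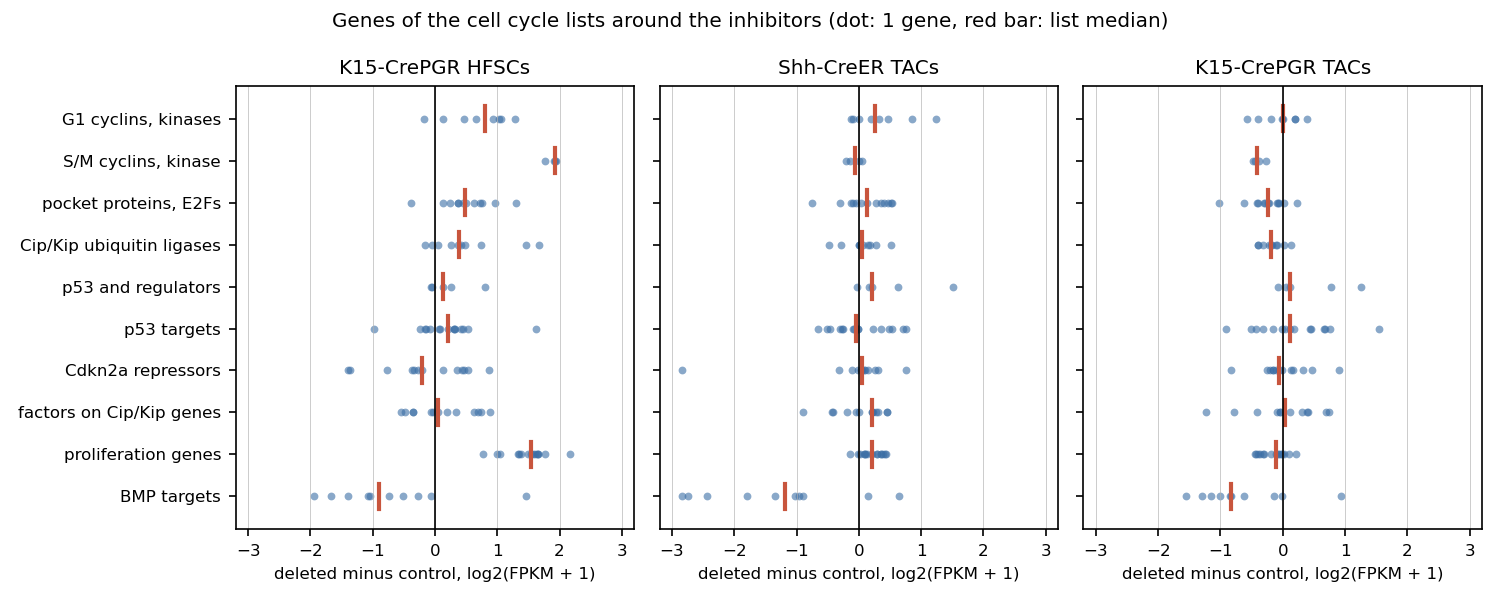
Difference of deleted minus control on the log2(FPKM + 1) scale (horizontal axis) for the genes of 10 lists around the inhibitors, with a dot for each gene that passed the minimum of 1 FPKM and a red bar for the list median, in panels for the 3 tables. S and M phase genes (median 1.92) and proliferation genes (median 1.54) lie to the right in HFSCs and near 0 in Shh-CreER TACs (medians -0.07 and 0.21), while BMP targets have negative medians in all 3 panels.

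BMP targets were at least 2-fold lower in 5 of 10 genes in HFSCs (1 higher, Id4), where 4.60% of all genes were lower, and in 6 of 10 in Shh-CreER TACs, where 2.77% were. Their median log2 differences were -0.90 in HFSCs, -1.18 in Shh-CreER TACs and -0.83 in K15-CrePGR TACs, where limma called none, 5 of 10 had an unadjusted p under 0.05 and 5 of 10 were lower in both KO samples (27.5% of loci were). By Pearson r over the 8 libraries, after each table was centred, the genes most like Cdkn1a among 2380 compared were Dlgap4 (r = 0.98), Id1 (r = 0.98) and Rusc1 (r = 0.97). For Cdkn1b they were AW549877, Myd88 and Zfp771 (r from 0.97 to 0.98, 7146 genes). For Cdkn2b they were Kdm4b, Fam151b and 2010011I20Rik (0.97 to 0.98, 5571 genes), and for Cdkn2c Papd5, Nhsl1 and Larp4b (0.97 to 0.98, 6467 genes). With 8 libraries that share genotype and table these r values describe rank among many genes and carry no test.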

How the data were processed

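RNA from mouse hair follicle cells was sequenced in 8 libraries. The deposited values are FPKM, made by the authors with TopHat and Cufflinks on the mouse build mm9 per the submitters' processing notes, with 1 column per library. No versions or further scaling steps are given in these sources. Deposited tables were normalized separately. Unnamed loci, which held 78.4% to 79.0% of the summed FPKM of a K15-CrePGR TAC library, stayed out. Where a symbol had several rows, that of the highest mean was used. Genes averaging at least 1 FPKM were compared on log2(FPKM + 1), which understates the change of low genes. K15-CrePGR TACs were tested with limma 3.58.1 (intensity trend, two-sided) in R 4.3.3 over 13565 named loci, adjusted by Benjamini-Hochberg (threshold 0.05). On simulated data for that comparison limma recovered 11 of 67 genes at 2-fold, 56 of 67 at 4-fold and 65 of 66 at 8-fold. It called 14 genes left unchanged too. The changed genes were all drawn from those with a level of at least 5 FPKM, averaged on the log2 scale. These counts therefore do not show recovery for genes as low as Cdkn1c and Cdkn2a. The other tables, with 1 library per group, were not tested, and a 2-fold difference was counted. Reads per gene and depth were estimated from the FPKM step of 1 read and transcript lengths.

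The members and the gene lists were chosen with earlier results of these data known. Genes named are the 7 members, Bmpr1a, up to 3 genes of each list and table with the largest difference and a mean of at least 5 FPKM (not all are printed), and the 3 genes most like each of the 4 members with that mean in all 3 tables, among genes whose spread was not much smaller than the member's. Xist, Ddx3y, Cd207, Des, Krt10 and Krt15, and genes repeated for another table, were added after their values were seen. Alternatives were a pseudocount of 0.1 or 5, a minimum of 5 FPKM or none, median scaling, quantile normalization, no trend and leaving out each K15-CrePGR sample; trimmed mean scaling was added after seeing the data. An exact 0 can be a failed estimate. Tables and plots were made in Python 3.11.15 (pandas 2.3.3, numpy 2.4.6, matplotlib 3.10.9).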

Additional observations from a re-analysis of the deposited data

Results flagged for a closer look

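Cdkn1c had a negative difference in HFSCs and Shh-CreER TACs and a positive difference in K15-CrePGR TACs, where both KO samples lay above both WT samples. With a single library per genotype, as in HFSCs and Shh-CreER TACs, the design makes any unequal pair lie on 1 side, and the Shh-CreER values were nearly level (3.63 and 3.29 FPKM). Its log2 difference in K15-CrePGR HFSCs lay -2.73 from that in K15-CrePGR TACs, and that in Shh-CreER TACs lay -1.08 from it. Neither gap was tested, since HFSCs and Shh-CreER TACs have 1 library per genotype and each table has its own normalization.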

How the results depend on the processing

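The K15-CrePGR count of 0 members past the threshold was the same under every alternative, and adjusted p over the members lay between 0.0849 and 0.94 with 1 library left out. Calls over all its loci, 5 higher and 4 lower, became 13 and 8 with a pseudocount of 0.1, 9 and 6 at a minimum of 5 FPKM, 20 and 22 with no minimum, 18 and 5 without KO 84, and 0 without WT 52 or without WT 57. Leaving out WT samples leaves 1 control, assumed to vary like the KO samples. The difference of Cdkn1b turned to 0.075 with quantile normalization, and with 1 library left out it ran from -0.23 to 0.19 (0.19 without WT 52, 0.13 without KO 84). That of Cdkn2c ran from -0.56 to 0.034, turning without KO 84. The cause was not tested. The number of members at least 2-fold different was 2 in Shh-CreER TACs and 1 with a pseudocount of 5. In HFSCs that pseudocount left 302 genes higher and 278 lower of 722 and 562, and in Shh-CreER TACs 119 and 173 of 328 and 340; a minimum of 5 FPKM left 436 and 418, and 198 and 229. No paired analysis was possible because the WT and KO samples share no number and the other tables hold 1 library per group. Cdkn2a rests on an estimated 1.9 to 5.9 reads in the HFSC and K15-CrePGR controls.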
